A study of Homo sapiens with 12 samples.

Results

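The genes described here are 10 genes of mucus-secreting intestinal epithelium, chosen by name from the 57736 genes of the count tables: the mucins MUC2, MUC5AC and MUC13, the trefoil factors TFF1 and TFF3, the transcription factors ATOH1 and SPDEF, and the secretory genes AGR2, FCGBP and SPINK4. All 10 were found, each under 1 gene identifier, and none of their rows was shared with another gene. They were measured in Ls174, a human colon cancer line, and in HepG2, a human liver cancer line, both labelled wild type, after 24 h with an extract of the red seaweed Hypnea musciformis (HME) or after 24 h with no treatment. The labels give the extract as 0.7 mg/ml, and the study's methods give a slightly different concentration. Each of the 4 groups had 3 libraries from separate cultures, the controls received no treatment, and each line is a single cancer cell line. HepG2 served as the background level for genes of the colon line.

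Goblet cells are the mucus-secreting cells of the intestinal lining. They are set apart from the absorptive lineage by the transcription factor ATOH1, mature under SPDEF, and fill their granules with the gel-forming mucin MUC2, the trefoil peptide TFF3 and the IgG Fc-binding mucus protein FCGBP, while the endoplasmic reticulum protein AGR2 helps to fold mucins. MUC5AC and TFF1 are best known as products of the gastric surface epithelium and MUC13 as a membrane-bound mucin of enterocytes and goblet cells, and all of these also occur in colon tumours.

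The libraries read the 3′ ends of messenger RNA, so a value counts transcript ends in a window and does not cover the whole transcript. The main window of MUC13 was 1498 bases wide, and those of TFF3 and AGR2 overlapped coding sequence. Values are given as CPM, counts divided by library size with TMM factors fitted over the 12 libraries. For 8 of the genes the counted window ran 197 to 200 bases past the 3′ end annotated in GENCODE v44 lifted to GRCh37. These windows were, for TFF1, chr21:43782194-43782587 on the minus strand and, for SPINK4, chr9:33248470-33248762 on the plus strand, both over the 3′ untranslated region. The MUC5AC window that held all 269 of its Ls174 counts, chr11:1222365-1222561 on the plus strand, began 1 base after the annotated end of the gene and overlapped no annotated exon. The only ATOH1 window, chr4:94751143-94751221, was 79 bases wide and ended 894 bases before the annotated 3′ end, so a count of 0 there says little about the transcript. Because window widths differ, levels are compared between samples and not between genes.

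SPINK4 and MUC13 had the highest and the lowest log2 fold change after HME in Ls174 among the genes with an entry in the RefSeq promoter table, and their promoters are shown for that reason. Of the 10 genes, 7 matched the table (build GRCh38.p14). Each stretch of 300 bases runs from 250 before to 50 after the start site, 5′ to 3′ on the strand of the gene. The coordinates come from its single exact match in GRCh37, chr9:33239915-33240214 on the plus strand for SPINK4 and chr3:124653546-124653845 on the minus strand for MUC13. Capitals mark matches, on either strand, to motifs of 5 kinds chosen after the sequences were seen, those of the TATA box core, GATA factors, AP-1, HNF4 and forkhead factors.
SPINK4: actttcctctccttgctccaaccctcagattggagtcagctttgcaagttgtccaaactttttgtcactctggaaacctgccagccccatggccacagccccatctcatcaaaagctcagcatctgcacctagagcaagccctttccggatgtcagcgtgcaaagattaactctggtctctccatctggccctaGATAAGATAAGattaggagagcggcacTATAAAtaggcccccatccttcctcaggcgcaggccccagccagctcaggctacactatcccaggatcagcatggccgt
MUC13: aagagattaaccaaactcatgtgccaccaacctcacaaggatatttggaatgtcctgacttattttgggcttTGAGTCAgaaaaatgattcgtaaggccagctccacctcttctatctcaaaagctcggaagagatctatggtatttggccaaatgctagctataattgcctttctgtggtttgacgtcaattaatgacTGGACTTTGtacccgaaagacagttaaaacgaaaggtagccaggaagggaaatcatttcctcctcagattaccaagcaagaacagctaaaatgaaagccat
The GATA motif, searched as GATAAG, occurred in SPINK4 at positions -56 and -51 from the start site, overlapping by 1 base, and was held by 6.36% of all 35116 promoters of the table. The TATA box core, searched as TATAAA, lay in SPINK4 at position -29 and was held by 11.5% of promoters. In MUC13 the AP-1 motif, searched as TGANTCA, began at position -178, and 7.71% of promoters held it. The HNF4 motif, searched as CAAAGTCCA, lay on the opposite strand of MUC13 from position -51, and 0.384% of promoters held it. The forkhead motif, searched as TGTTTAC, was in neither promoter and in 3.42% of all. A match is a stretch of letters and was not tested as a binding site.

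Library totals ran from 1790841 to 3656662 counts. Ls174 control 1 and HepG2 control 2 stood apart from the libraries of their own line, with a mean correlation across genes of 0.869 and 0.833, where the others lay between 0.904 and 0.947. The colon label of Ls174 was matched by EPCAM, CDX1, CDX2 and CDH17, which had more than 3 counts in every Ls174 library, while the differentiated-epithelium keratin KRT20 had 0 counts in 5 of 6. EPCAM also had 88 to 706 counts in the HepG2 libraries. VIL1, of the same list, had a higher mean in untreated HepG2 than in untreated Ls174, 135 against 62.5 CPM. Transcripts of hepatocytes, the cell type HepG2 derives from, were present in 4 of the Ls174 libraries. The summed level of 8 hepatocyte markers was 126 CPM in Ls174 control 3, 57.6 CPM in HME 1, 9.48 CPM in HME 3 and 0.309 CPM in control 2, the highest being 0.651% of the mean of untreated HepG2. It was 0 in control 1 and HME 2.

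The 10 genes were a small and line-dependent part of the transcriptome. In untreated Ls174 they held 0.0413% ± 0.0015 (SD, n = 3) of all counts and in untreated HepG2 0.00347% ± 0.00070. In HME-treated Ls174 the share was 0.0454% ± 0.0007 (SD, n = 3), and each of these 3 libraries, from 0.0446 to 0.0461%, was above the 3 control libraries, from 0.0396 to 0.0422%. The exact 95% intervals, which cover counting error only, ran from 0.0399 to 0.0443% in control 3 and from 0.0421 to 0.0472% in HME 2, so single libraries of the groups overlapped within counting error.

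**Figure D1:**
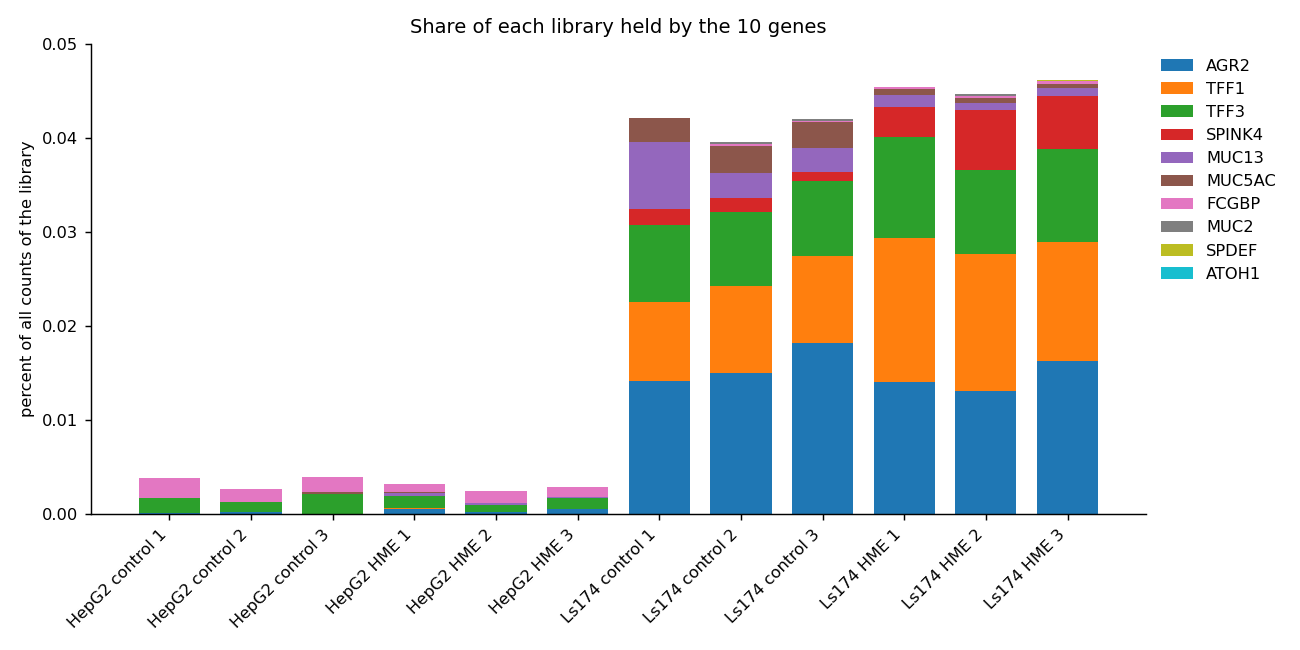
Percent of all counts of each library (vertical axis) held by the 10 genes, stacked by gene, for the 12 libraries (horizontal axis). The Ls174 bars stand between 0.0396 and 0.0461%, with the MUC13 and MUC5AC segments narrower and the SPINK4 and TFF1 segments wider in the HME libraries.

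Of the counts that fell on the 10 genes in Ls174, MUC5AC took 6.12 to 7.04% in the controls and 0.851 to 1.34% after HME. SPINK4 went the other way, from 2.33 to 3.84% in the controls to 7.01 to 14.3% after HME. TFF1 took 20.1 to 23.2% in the controls and 27.5 to 33.9% after HME. AGR2 took 33.5 to 43.2% in the controls and 29.3 to 35.3% after HME. The shares of MUC5AC, SPINK4, TFF1, MUC13 and TFF3 did not overlap between the groups, those of TFF3 only narrowly, and those of AGR2 did. Shares of a fixed total move each other, so these separations are not independent. They were not set against shares of other genes.

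The first comparison asked how far the colon line exceeds the liver line before any treatment. AGR2, MUC13, MUC5AC, SPINK4, TFF1 and TFF3 were higher in Ls174 and FCGBP was higher in HepG2, each at an adjusted p under 0.05 (edgeR quasi-likelihood test, Benjamini-Hochberg over all tested genes), with each library left out in turn as well. Of the 11907 tested genes 23.5% were called. Most of these members passed the low-count filter through the line in which they are high and were chosen as colon genes, so their number is a description and is not set against that share. For the same reason the calls, also those with a library left out, describe levels and are not read as support. In bulk libraries a gene expressed in fewer cells and a gene with less RNA per cell cannot be told apart.

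TFF1 and MUC13 had 0 counts in all 3 untreated HepG2 libraries. Against the floor of 3 counts per library, 1.85 CPM in the shallowest of these, TFF1 was at least 44.2-fold and MUC13 at least 20.7-fold higher in untreated Ls174. Without Ls174 control 1, in which MUC13 was highest, the bound for MUC13 was 12.3-fold. MUC5AC had 3 and SPINK4 1 count in untreated HepG2, against 228 and 108 in untreated Ls174, a ratio of 64.8 (95% counting interval 21.9 to 316) for MUC5AC and 92.0 (16.2 to 3669) for SPINK4. AGR2 had 9 counts in untreated HepG2 against 1339 in untreated Ls174, a ratio of 127 (95% counting interval 66.6 to 278). These 5 genes were thus near or under the detection floor in the untreated liver line.

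TFF3 and FCGBP were not restricted to the colon line. TFF3 had 15.5, 12.4 and 20.5 CPM in the HepG2 controls and 79.2, 70.4 and 70.2 CPM in the Ls174 controls, a log2 fold change of 2.14 ± 0.33 (SE, edgeR adjusted p = 0.0015). FCGBP had 20.8, 16.7 and 15.7 CPM in the HepG2 controls and 0, 2.16 and 1.27 CPM in the Ls174 controls, lower by 3.83 ± 0.73 (SE) on the log2 scale. All 3 HepG2 values of FCGBP lay above its 3 Ls174 values, and the reverse held for TFF3.

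MUC2, SPDEF and ATOH1 had few or no counts. ATOH1 had 0 counts in all 12 libraries, which says little because of the position of its window. SPDEF, whose window covered the annotated 3′ end, had 2 counts in the Ls174 controls and 3 after HME, in 1 library each, and 0 counts in HepG2, so its level in each library was at or under the floor of 3 counts. MUC2, the main secreted mucin of the colon, had 0, 7 and 5 counts in the Ls174 controls, 2, 4 and 0 after HME and 0 in HepG2. Neither SPDEF nor MUC2 passed the low-count filter in any comparison, and a change by HME was not detectable at this depth. Ls174 thus had TFF3 and AGR2 transcripts at well over the floor beside few of MUC2, SPDEF and FCGBP, and is described here by the genes that were measured.

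**Figure D2:**
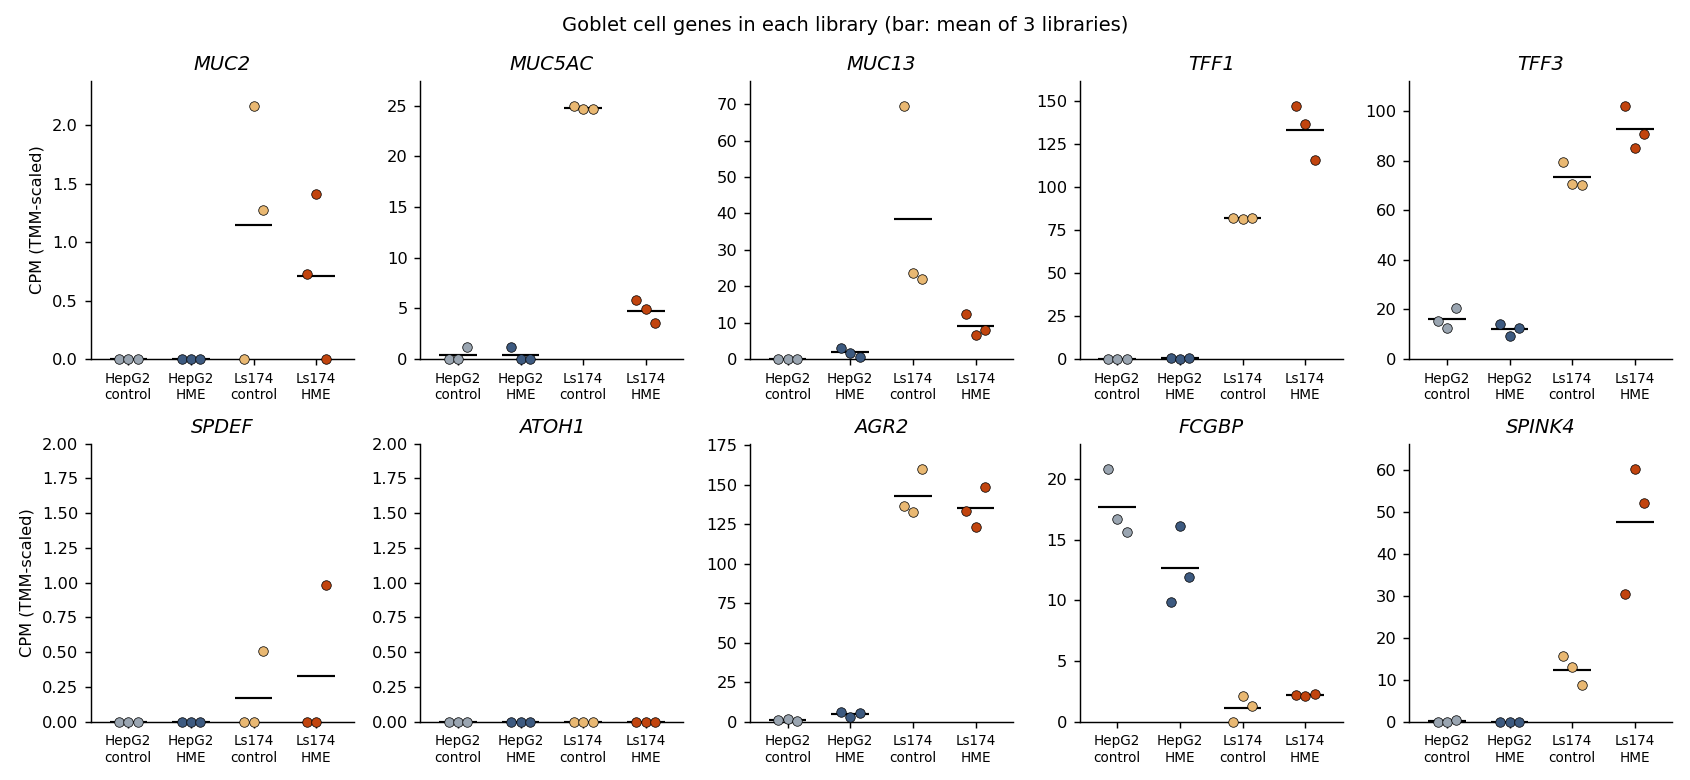
TMM-scaled CPM (vertical axis, from 0) of each of the 10 genes in every library, with 3 points per group and a bar at the group mean. MUC5AC and MUC13 sit lower and SPINK4 and TFF1 higher in HME-treated than in untreated Ls174, with no overlap of the points, while FCGBP is highest in HepG2.

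The main question was how HME changed these genes in Ls174. MUC5AC fell and SPINK4 rose at an adjusted p under 0.05, which 1.18% of the 11319 tested genes reached. MUC13 was lower and TFF1 higher only at the thresholds of the study's methods (unadjusted p under 0.05 and log2 fold change beyond 0.58). Of the 6 members tested, 4 passed those, where 12% of tested genes did. The study names a binomial test for its p, while the p used here came from the edgeR test. Calls at these thresholds are therefore not the study's own calls. TFF3 and AGR2 passed neither. In 5 of the 6 the HME and control libraries did not overlap, and 23.8% of all tested genes had such separation. MUC2, SPDEF, ATOH1 and FCGBP did not pass the low-count filter.

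Among the mucins, MUC5AC had the clearest fall. Its level was 24.9, 24.7 and 24.7 CPM in the 3 controls and 5.80, 4.95 and 3.59 CPM after HME, on 51, 80 and 97 counts against 16, 14 and 11. The controls were nearly identical and every HME library was below every control. The log2 fold change was -2.37 ± 0.31 (SE, edgeR adjusted p = 0.025), a 5.19-fold lower level. With single libraries left out the log2 fold change stayed between -2.53 and -2.19, while the adjusted p ran from 8.7e-05 without control 1 to 0.26.

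MUC13 had 69.4, 23.8 and 21.9 CPM in the controls and 12.3, 6.72 and 7.84 CPM after HME. The highest HME library was below the lowest control, but control 1 was far above the other controls, and this library stood apart overall. The log2 fold change was -2.09 ± 0.51 (SE), with an unadjusted p of 0.0032 and an adjusted p of 0.11 in the edgeR test. Without control 1 the difference was smaller, at -1.34, and the edgeR adjusted p was 0.0065. With another single library left out it reached 0.53.

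Trefoil factors are small secreted peptides that act with mucins in mucus and in epithelial repair. TFF1 had 82.2, 81.5 and 82.2 CPM in the controls and 147, 137 and 116 CPM after HME, with no overlap. The log2 fold change of TFF1 was 0.69 ± 0.18 (SE), with an unadjusted p of 0.0049 and an adjusted p of 0.14 in the edgeR test. This adjusted p was 0.017 without control 1 and reached 0.55 with another single library left out. TFF3 had 79.2, 70.4 and 70.2 CPM in the controls and 102, 85.2 and 90.5 CPM after HME. The TFF3 groups did not overlap either, but the log2 fold change of 0.33 ± 0.19 (SE) had an adjusted p of 0.47 in the edgeR test.

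Of the secretory genes, SPINK4, a Kazal-type serine protease inhibitor made by goblet cells, had the strongest rise. It had 15.7, 13 and 8.65 CPM in the controls and 30.4, 60.1 and 52.0 CPM after HME, on 32, 42 and 34 counts against 84, 170 and 159. The lowest HME library was above the highest control. The log2 fold change was 1.95 ± 0.35 (SE, edgeR adjusted p = 0.039), a 3.85-fold higher level. It ranged from 1.73 to 2.19 with single libraries left out, with adjusted p between 0.00027 without control 1 and 0.29.

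AGR2 had 136, 133 and 160 CPM in the controls and 134, 123 and 149 CPM after HME. These groups overlapped, and the log2 fold change of -0.09 ± 0.19 (SE) had an edgeR adjusted p of 0.86 and an approximate 95% interval from -0.45 to 0.28. FCGBP had 0, 7 and 5 counts in the controls and 6, 6 and 7 after HME and was not tested.

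**Figure D3:**
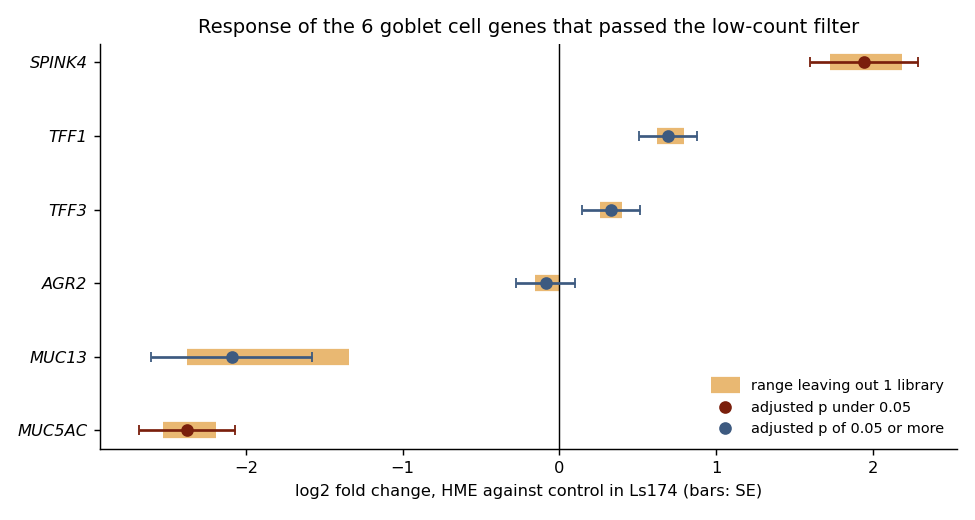
log2 fold change of HME against control in Ls174 (horizontal axis) for the 6 genes tested, with SE bars from the edgeR fit on 3 libraries per group. The wide band is the range when 1 library is left out: it stays on one side of 0 for all 6, closely so for AGR2, and is widest for MUC13.

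The 2 adjusted calls depended on the libraries used, as did all calls in this comparison. The number of members called was 4 without control 1, namely MUC5AC, SPINK4, MUC13 and TFF1, and 0 without any one of the other 5 libraries. Over all genes, 134 calls became 979 without control 1, 2 without control 2, 10 without control 3 and 0 without any one HME library. Without control 3 and HME 1, the libraries with the most hepatocyte transcripts, log2 fold changes were -2.54 for MUC5AC, 1.96 for SPINK4, -2.67 for MUC13 and 0.62 for TFF1, and no gene was called.

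The gel-forming mucins and the trefoil factors each lie together in the genome, which the choice of genes did not use and which was noticed after the values were seen. The counted windows of MUC6, MUC2, MUC5AC and MUC5B lie within 271 kb on chromosome 11, and those of TFF3, TFF2 and TFF1 within 51.0 kb on chromosome 21. MUC6, a mucin of gastric and duodenal glands, had 138, 33.3 and 23.7 CPM in the controls and 3.26, 2.83 and 7.52 CPM after HME, a log2 fold change of -3.81 ± 0.76 (SE, edgeR adjusted p = 0.063). The groups did not overlap, and without control 1, the highest library, the value was -2.61 (edgeR adjusted p = 0.00018). With another single library left out, the edgeR adjusted p of MUC6 reached 0.40. MUC5B had 6, 4 and 11 counts in the controls and 0, 0 and 2 after HME, too few for the filter. MUC2, between MUC6 and MUC5AC on the map, stayed at a few counts.

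TFF2, the trefoil peptide of gastric gland mucus, had 2.93, 8.34 and 2.55 CPM in the controls and 14.9, 13.1 and 7.52 CPM after HME. The groups overlapped, since control 2 was above HME 3, and the log2 fold change of 1.33 ± 0.54 (SE) had an edgeR adjusted p of 0.34. It was 2.10 without control 2, which was the highest control, and 1.01 without control 3. All 3 trefoil genes therefore had a positive log2 fold change, none of them at an adjusted p under 0.05.

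**Figure D4:**
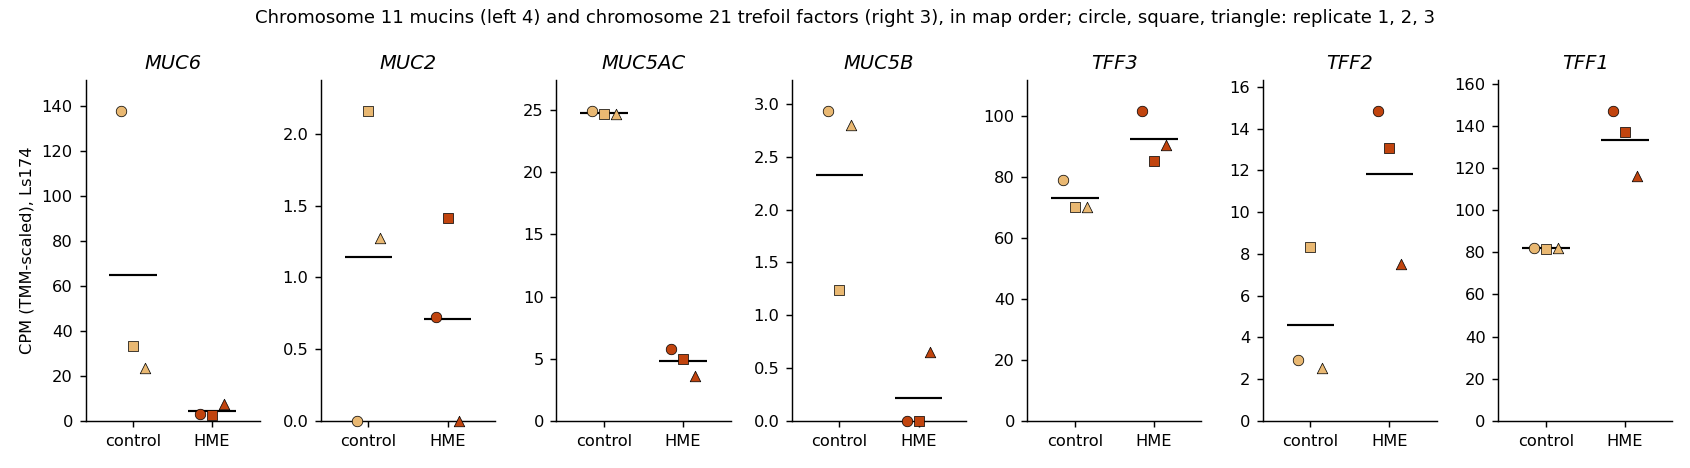
TMM-scaled CPM (vertical axes, from 0) in the 6 Ls174 libraries for 4 mucin genes of chromosome 11 and 3 trefoil genes of chromosome 21 in map order, with 1 symbol per replicate number and a bar at the mean. MUC6 and MUC5AC are lower in every HME library than in every control, MUC2 and MUC5B are at a few counts, and the trefoil means are higher after HME, with overlapping groups for TFF2 alone among the 3.

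The list of other mucins and trefoil factors held 11 genes, of which MUC6, TFF2 and MUC20 passed the filter. None passed the adjusted threshold, and all 3 passed those of the study, TFF2 as higher and MUC6 and MUC20 as lower. The membrane-bound MUC20 had 16.6, 25.3 and 23.2 CPM in the controls and 16.7, 12.7 and 11.8 CPM after HME, a log2 fold change of -0.67 ± 0.29 (SE, edgeR adjusted p = 0.36). MUC1, MUC4 and MUC16, broad epithelial membrane mucins, had 0 counts in all 12 libraries. Window positions were compared with the annotated 3′ ends for the members only. The 0 counts of these mucins therefore say little about their transcripts.

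Of 10 genes listed as other goblet cell products, 4 were tested and none passed either threshold. Of these, LGALS4 was also on the list of colon epithelium markers, so it is not particular to goblet cells. The galectin LGALS4 had 28.4, 76.9 and 96.7 CPM in the controls and 99.7, 113 and 87.6 CPM after HME (log2 fold change 0.56 ± 0.38, edgeR adjusted p = 0.55, and 0.21 without control 1). The lectin REG4, the mucous-cell stress sensor ERN2 and the kallikrein KLK1 had log2 fold changes of -0.04, -0.52 and 0.18. The classical goblet products CLCA1, ZG16, RETNLB, ITLN1 and BEST2 had 3 counts or fewer in every library. Their window positions were not checked either, so such low counts say little about their transcripts.

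Transcription factors that act in secretory epithelium did not pass either threshold, 8 of 10 being tested. XBP1, a regulator of the secretory endoplasmic reticulum, had 38.1, 131 and 105 CPM in the controls and 152, 147 and 118 CPM after HME (log2 fold change 0.60 ± 0.38, and 0.24 without control 1). The intestinal factor CDX2 had 31.8, 86.8 and 97.7 CPM in the controls and 55.8, 35.4 and 40.5 CPM after HME. Its log2 fold change was -0.73 ± 0.39 with an edgeR adjusted p of 0.45, but -1.07 and 0.0018 without control 1, which was the lowest of the controls. With another single library left out, the edgeR adjusted p of CDX2 reached 0.82. FOXA2, FOXA1 and KLF4 had values of 0.57, -0.57 and 0.79, with edgeR adjusted p between 0.39 and 0.51.

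Mucins are covered by O-linked sugar chains, begun by the GALNT enzymes and extended or capped by others. Of 30 such enzymes 19 were tested, and 2 fell at an adjusted p under 0.05, where 0.866% of all tested genes did. At the thresholds the study used, 7 of the 19 were lower, beside 7.85% of all tested genes. ST6GALNAC4 was the 1 higher (log2 fold change 0.89 ± 0.36, SE), beside 465 of the 11319 tested genes. Their median log2 fold change was -0.64, against -0.0029 over all tested genes. Of the 19 values 14 were below 0, beside 5673 of the 11319 tested genes. The study itself names mucin O-glycan synthesis for these cells, so the list is not an independent choice.

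GALNT7, which adds further sugars to partly glycosylated mucin peptides, had 25.9, 27.2 and 22.9 CPM in the controls and 7.25, 6.72 and 5.88 CPM after HME (log2 fold change -1.94 ± 0.28, edgeR adjusted p = 0.030). GALNT1, an initiating enzyme, had 75.3, 64.8 and 69.0 CPM in the controls and 27.5, 27.9 and 37.9 CPM after HME (-1.17 ± 0.22, edgeR adjusted p = 0.046). Neither gene had overlapping groups. With single libraries left out, adjusted p reached 0.27 for GALNT7 and 0.35 for GALNT1. The sialyltransferase ST6GALNAC1 had 254, 100 and 88.6 CPM in the controls and 32.3, 36.1 and 43.8 CPM after HME (-1.99 ± 0.42, edgeR adjusted p = 0.073). Control 1 was again the highest, and without it the value was -1.33 and the adjusted p 0.00016. With another single library left out, the edgeR adjusted p of ST6GALNAC1 reached 0.41. FUT3, the Lewis antigen fucosyltransferase, had a log2 fold change of 0.61 ± 0.28 (edgeR adjusted p = 0.39).

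**Figure D5:**
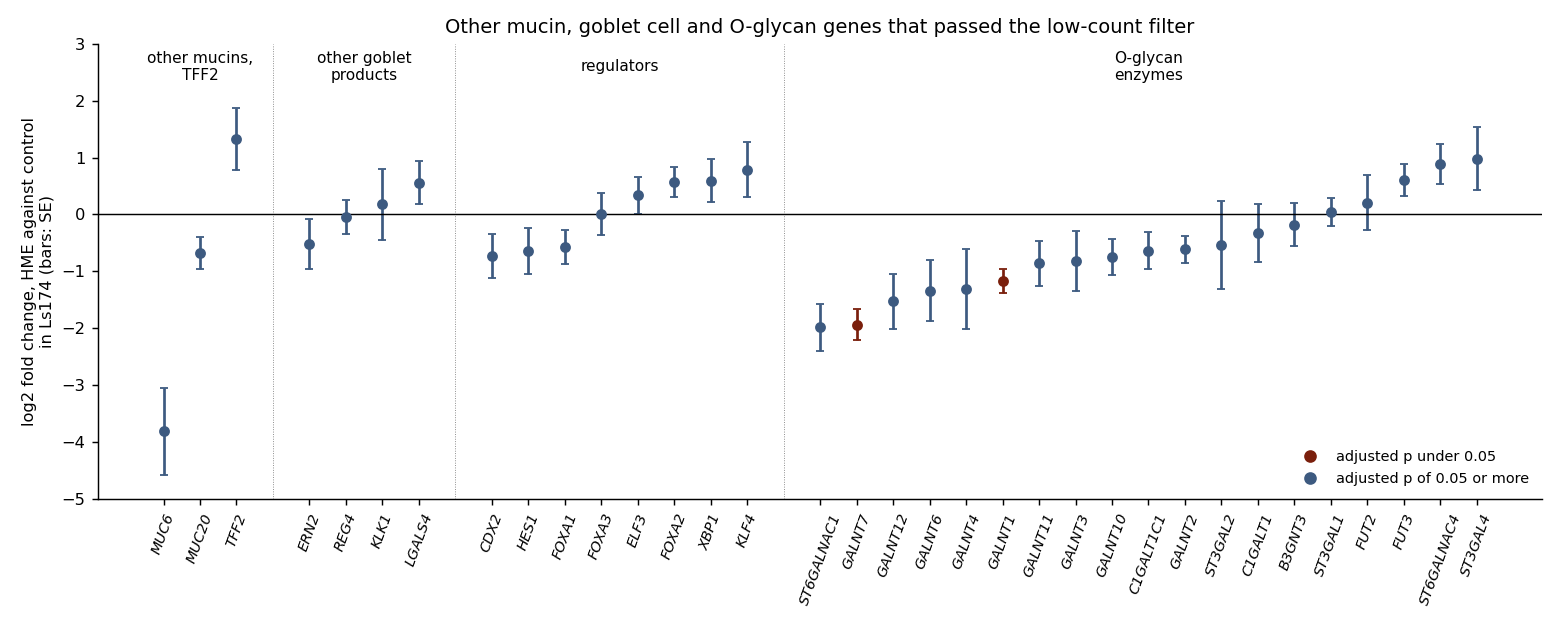
log2 fold change of HME against control in Ls174 (vertical axis, SE bars, 3 libraries per group) for the genes of 4 further lists that passed the low-count filter. Only GALNT7 and GALNT1 have an adjusted p under 0.05. Of the 19 O-glycan enzymes 14 lie below 0, beside 5673 of all 11319 tested genes.

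Markers of other intestinal cells were read beside these genes. Of 6 stem cell markers all were tested, and OLFM4 and SMOC2, named after their values were seen, fell at an adjusted p under 0.05 (log2 fold changes -1.43 ± 0.21 and -1.24 ± 0.20, edgeR adjusted p = 0.031 and 0.034), beside 0.866% of all tested genes that were lower at this threshold. The other 4 did not pass it, with log2 fold changes of -1.97 for LGR5, -0.55 for ASCL2, -0.35 for AXIN2 and 0.04 for RNF43. Of 7 colon epithelium markers tested, 4 were lower at the thresholds the study used, EPCAM, CDX1, CDH17 and GPA33, beside 7.85% of all tested genes. The other 3, CDX2, VIL1 and LGALS4, had log2 fold changes of -0.73, -0.09 and 0.56. The summed level of the 6 stem cell markers was 1056 to 1347 CPM in the controls and 692 to 837 CPM after HME, and that of the 8 colon markers 767 to 992 and 619 to 667 CPM. Each sum was mostly 1 gene. ASCL2 had a mean of 746 CPM in the controls and 515 after HME, and EPCAM of 532 and 342 CPM. Of 10 enterocyte markers 7 had 0 counts in the Ls174 controls and 7 after HME, and no enteroendocrine marker passed the filter. The window positions of these markers were not checked, so their absence is not established. Whether these shifts had a part in the changes of the mucus genes was not tested.

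In HepG2, FCGBP and TFF3 were the members that could be tested, and neither passed a threshold, where 3.31% of the 11343 tested genes passed the adjusted one and 22.2% those of the study. FCGBP had 20.8, 16.7 and 15.7 CPM in the controls and 9.84, 16.1 and 11.9 CPM after HME (log2 fold change -0.47 ± 0.35, approximate 95% interval -1.16 to 0.21). TFF3 had 14.2, 9.45 and 12.5 CPM after HME beside the control values given above (-0.41 ± 0.36, interval -1.11 to 0.29). The groups of both genes overlapped.

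AGR2 and MUC13 had low counts in treated HepG2. AGR2 had 5, 3 and 1 counts in the controls and 16, 8 and 9 after HME, or 1.34, 1.85 and 0.402 against 6.30, 2.80 and 5.38 CPM. MUC13 had 0 counts in the controls and 8, 5 and 1 after HME, above the floor of 3 counts in 2 of these libraries. Neither passed the filter in this line. Under the settings that did test AGR2 in HepG2, its edgeR adjusted p ran from 0.024, in the fit over all 12 libraries that it entered through Ls174, to 0.25, so a response was not established. No p is given for MUC13, whose HepG2 controls were all at 0. HepG2 HME 2 held 1560 counts of the collagen gene COL1A1, where the other HepG2 libraries had 15 or fewer, and this library had 8 counts of AGR2 and 5 of MUC13. The part of that RNA in these counts was not tested.

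Whether HME acted differently in the lines was tested by the interaction of line and treatment over all 12 libraries. It shares the control and HME libraries with the comparisons above. MUC13 was the only member at an adjusted p under 0.05 (edgeR, 0.045), where 0.644% of 13040 tested genes were called. It entered this fit through its Ls174 counts and had 0 counts in the HepG2 controls, so this call is weak. MUC13 was lower after HME in Ls174 and went from 0 to 14 counts in all in HepG2, so the fitted size of the difference depends on how 0 counts are treated and is not given. AGR2 had an interaction of -2.09 ± 0.56 on the log2 scale (unadjusted p = 0.0021, edgeR adjusted p = 0.12). The edgeR adjusted p of TFF3, TFF1, SPINK4, FCGBP and MUC5AC lay between 0.40 and 0.54. Like MUC13, the genes AGR2, TFF1, SPINK4 and MUC5AC entered this fit through their Ls174 counts, and FCGBP through its HepG2 counts. Their interaction values are therefore weak as well, and TFF3 alone passed the low-count filter in both lines. MUC5AC and SPINK4, called in Ls174, are therefore not shown to respond differently in HepG2, where both were at the floor.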

How the data were processed

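RNA from 12 cultures was made into 3′ end libraries and sequenced on an Ion Proton. Per the study's methods and the processing notes, the authors aligned reads with HISAT2 to hg19 (GRCh37) and counted them with metaseqR2. Bowtie2 and Trimmomatic are also named, without a role. Strand handling and reads with several matches are not given in the sources used here. The deposited values are raw counts per 3′ window, not normalized, with 1790841 to 3656662 counts per library. Counts were summed over all windows of a gene (144910 windows, 57736 genes). Each comparison was fitted across all genes with edgeR 4.0.16: low counts were removed with filterByExpr, libraries scaled by TMM, and genes tested by quasi-likelihood F tests with Benjamini-Hochberg adjustment. The fit was tested on simulated data. Named genes were the 10 members and, from 4 other lists, genes with an adjusted p under 0.05 in Ls174, otherwise the 4 smallest p, plus the 3 highest levels. The members and lists were chosen with earlier results of these data known. Alternatives were library size scaling, upper quartile, DESeq2 1.42.0, other filters, single libraries left out, a replicate block, the top window alone, windows shared between genes left out, 1 fit of all libraries and a binomial test on summed counts. No 2 libraries of a group agreed within sampling noise (chi-square per degree of freedom 4.44 or more). The 95% intervals and the floor of 3 counts cover counting error only.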

Additional observations from a re-analysis of the deposited data

Results flagged for a closer look

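The interaction of line and HME treatment for MUC13 passed the threshold in the test over 12 libraries (edgeR quasi-likelihood, adjusted p = 0.0454). MUC13 entered this fit through its Ls174 counts and did not pass the low-count filter in HepG2 alone, so a difference in response between the lines is not established by it. In Ls174 all 3 HME libraries, at 6.72 to 12.3 CPM, were below the 3 controls, at 21.9 to 69.4 CPM. In HepG2 the controls had 0 counts and the HME libraries 8, 5 and 1. The difference rests on 14 counts in HepG2 and lost its call under several settings, given in the next part.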

How the results depend on the processing

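In Ls174, 101 of 102 member log2 fold changes under the alternatives kept their direction. The exception was AGR2, at 0.0064 without the 2 libraries with the most hepatocyte transcripts, a setting chosen after the data were seen. Of the other genes, KLK1 reversed without Ls174 control 1 (range -0.25 to 0.67 with 1 library left out), and REG4 reversed to 0.011 with the top window alone and without control 2 or HME 3 (range -0.18 to 0.20). The number of members called in Ls174 at an adjusted p under 0.05 was 2, against 4 with DESeq2 and 5 with the binomial test on summed counts. It was 0 in 1 fit of 12 libraries, 0 without the 2 libraries with the most hepatocyte transcripts and 0 to 4 with 1 library left out. The cause was not tested beyond the fewer libraries. The count at the study's thresholds was 3 or 4 throughout. In HepG2, 0 members were called, against 2 adjusted calls and 3 at the study's thresholds in 1 fit of 12 libraries, and 1 and 2 with no low-count filter, the genes being AGR2, MUC13 and TFF1, which did not pass the filter with all 6 HepG2 libraries. AGR2 was tested with some single libraries left out, at an adjusted p of 0.079 to 0.25. Leaving out 1 library gave 0 or 1 at the study's thresholds. Between the lines 7 members were called, but 1 with at least 10 counts in every library, since fewer were tested. The interaction called 1 member, against 2 with DESeq2, 0 with library size scaling, upper quartile or at least 10 counts in every library, and 0 to 1 with 1 library left out. The MUC5AC interaction reversed without HepG2 HME 1 (range -5.73 to 0.95). The members' share of counts moved to 0.0434% in untreated and 0.0486% in treated Ls174 with the top window alone. No pairing by replicate number was seen: deviations of same-numbered Ls174 libraries correlated by -0.039, 0.0055 and -0.060. Those of same-numbered HepG2 libraries correlated by -0.150, 0.073 and -0.116. These values cannot show whether same-numbered cultures were run together. With a replicate block, 0 members and 0 genes were called in Ls174 (1192 genes at an unadjusted p under 0.05; DESeq2 without a block called 4 members), MUC5AC having an adjusted p of 0.14 and SPINK4 of 0.18, and 0 members were called in the interaction. MUC2, with 7 counts at most, and SPDEF, with 3 at most, had too few counts to test at this depth.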
